A study of Mus musculus with 8 samples.

Results

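Cells dispose of peroxides, reactive oxygen species and electrophilic chemicals with a set of enzymes that run on 2 small carriers of reducing power, the tripeptide glutathione and the protein thioredoxin. The set was taken from the array as every probe whose gene name is that of a glutathione transferase (Gsta, Gstm, Gsto, Gstp, Gstk or Gstt), a microsomal transferase (Mgst), a glutathione peroxidase (Gpx) or a peroxiredoxin (Prdx), or is Gclc, Gclm, Gss, Gsr, Txn1, Txn2, Txnrd1, Txnrd2, Nqo1, Hmox1, Sod1, Sod2, Cat, Nfe2l2 or Keap1. This gave 79 probes of 51 genes, out of 39429 probes of 30397 genes. Signal passed the filter for 67 of the 79 probes, so that 45 of the 51 genes were tested, among 18116 genes tested in all. The 6 that were not tested were Gstm7, Gpx5, Gpx6, Mgst2, Gsta2 and Gstt4.

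The cells were E14 embryonic stem cells (ESCs), a mouse line from the early embryo, and RNA was taken 72 hours after infection with lentiviruses that carry short hairpin RNAs. There were 4 groups of 2 biological replicates, A and B. Control KD cells received a hairpin against GFP, Tip60 KD cells a hairpin against Tip60, Hdac6 KD cells a hairpin against Hdac6, and double KD cells the hairpins against both. Tip60, encoded by Kat5, is the acetyltransferase of the Tip60-p400 chromatin complex, and Hdac6 is a deacetylase. All groups were grown on gelatin without feeder cells, in medium with serum, the cytokine LIF and beta-mercaptoethanol. The last is itself a thiol reducing agent, so none of the groups shows these genes in cells without an added reductant. Each gene was targeted with 1 hairpin, and 1 line was used.

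Glutathione is built from its amino acids by glutamate-cysteine ligase (subunits Gclc and Gclm) and glutathione synthetase (Gss), and its oxidised form is reduced again by Gsr. Glutathione transferases join it to electrophiles, and glutathione peroxidases use it to reduce peroxides. Peroxiredoxins reduce peroxides mostly with electrons from thioredoxin (Txn1, and Txn2 in mitochondria), which thioredoxin reductases recharge. Many of these genes are known targets of the transcription factor Nrf2, encoded by Nfe2l2, which the adaptor Keap1 holds at low levels until oxidants or electrophiles modify it.

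Levels are log2 values of processed signal relative to the 75th percentile of the same array, so that 0 is the signal of that percentile, and a floor was set at -2.71. A probe's brightness depends on its sequence as well as on its RNA, so levels were compared between groups and not between genes. A gene was called where limma gave a Benjamini-Hochberg adjusted p under 0.1 over all 18116 genes. Since RNA came from whole cultures, a smaller number of cells of a type and less RNA per cell cannot be told apart.

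The targeted genes went with the labels. Kat5 RNA fell to 39.2% of control KD in Tip60 KD and to 40.4% in double KD, and Hdac6 RNA to 17.8% in Hdac6 KD and 27.3% in double KD. Hdac6 also fell by 0.44 on the log2 scale in Tip60 KD (adjusted p = 0.00622). Of 10 markers of ESCs, 8 were above the floor on all 8 arrays. Nanog and Tdgf1 were above it on 7 and had no value on array A of Tip60 KD. Summed signal of the ESC markers was 326 to 358 times the percentile, without Nanog and Tdgf1 on that array. Summed signal of fibroblast, primitive endoderm, mesoderm, neural and blood markers was at most 2.81. The fibroblast sum was 1.71 and 1.77 for control KD and 2.35 and 2.81 for Tip60 KD. It was 1.72 and 1.79 for Hdac6 KD, and 2.61 and 2.64 for double KD. Of its 7 genes, Thy1 was above the floor on all arrays, and Postn and Dcn were at the floor on all. Mean Thy1 was 0.55 for control KD, 1.02 for Tip60 KD, 0.59 for Hdac6 KD and 1.08 for double KD. Mean Col1a1 was -2.42, -1.45, -2.71 and -1.63 in the same order. Col1a2, Col3a1 and Lum lay between -2.71 and -2.48. The part of these markers in the results was not tested. Background subtracted by the scanner software ranged from 37.25 to 114.3 intensity units and was highest on array B of control KD.

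Depletion of Tip60, alone or together with Hdac6, went with lower RNA for much of the set. In Tip60 KD, 31 of the 45 genes were called, 7 higher and 24 lower, where 39.7% of all genes were called (19.7% higher and 20% lower). In double KD, 27 were called, 5 higher and 22 lower, against 32.8% of all genes (15.9% higher and 16.9% lower). With the deposited series matrix values the split was 7 higher and 16 lower, where 24.2% of all genes were called and 11.5% were lower. In Hdac6 KD, 19 were called, 10 higher and 9 lower, against 28.9% of all genes (14% higher and 14.9% lower), and this count was 10 without array B of control KD or of Hdac6 KD and 12 without array A of either. With the replicate letter as a block it was 30, 13 higher and 17 lower, against 52.9% of all genes. The share of the set that was called lower was 53.3% in Tip60 KD, 48.9% in double KD and 20% in Hdac6 KD, and with the block 37.8% in Hdac6 KD, against 25.2% of all genes. The median change of the 45 genes was -0.44 in Tip60 KD, -0.26 in double KD and -0.05 in Hdac6 KD, against 0.06, 0.05 and 0.03 over all genes.

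**Figure D1:**
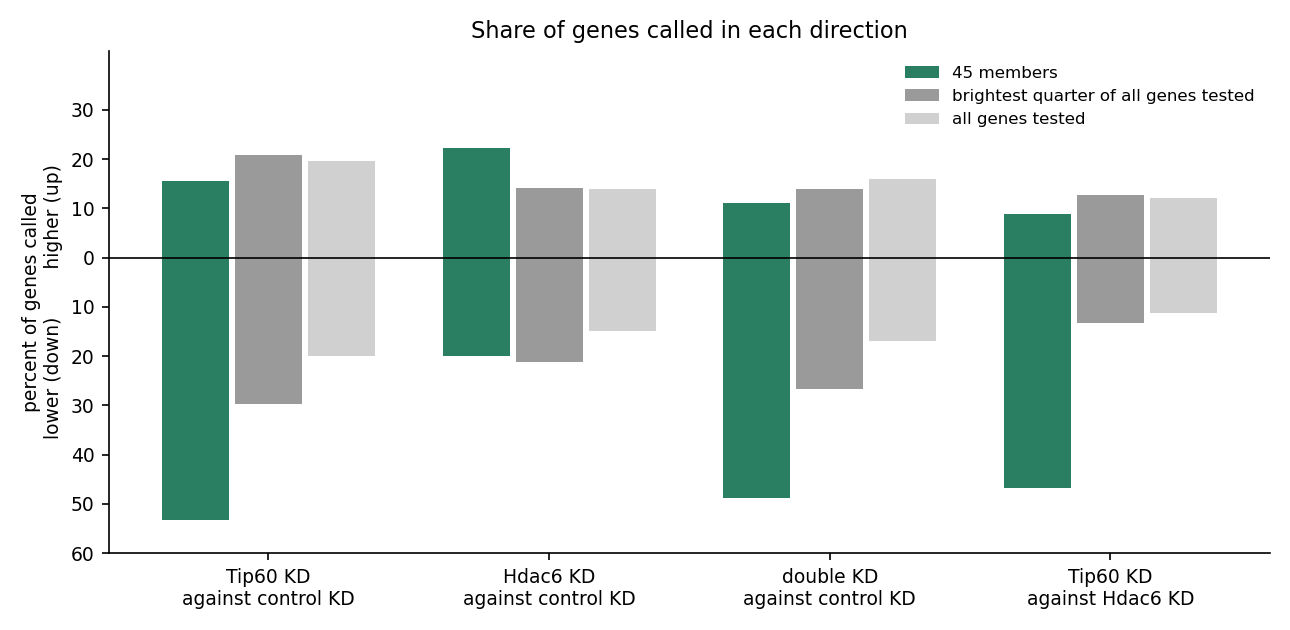
Percentage of genes called higher (bars upward) and lower (bars downward) at an adjusted p under 0.1 in limma, for the 45 tested members, the brightest 4529 tested genes (the brightest quartile) and all 18116 tested genes, in each knockdown against control KD and in Tip60 KD against Hdac6 KD. The downward bars of the members reach 53.3% in Tip60 KD and 48.9% in double KD, against 20% and 16.9% of all genes, and 20% in Hdac6 KD, against 14.9%.

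The probes of this set were bright, and bright probes were called lower more often than others. Of the 45 genes, 22 lay in the brightest 4529 of all tested genes, where 29.8% of genes were called lower in Tip60 KD, 26.7% in double KD and 21.1% in Hdac6 KD. Of these 22 members, 13, 12 and 4 were called lower. The part that brightness had in the counts was not tested. On each slide taken alone, the sign of the change was that of the fit for all 31, 27 and 19 called genes. The calls came from these same arrays, so this is no separate support for them.

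The 3 knockdowns were each set against the same control KD arrays, so an error in those arrays enters all of them. With that shared base and no block in the fit, 5 genes were called higher in all 3 knockdowns (Gpx1, Gsta3, Gstt3, Nqo1 and Prdx6) and 7 were called lower in all 3 (Gstm2, Gstm3, Gstm6, Gpx2, Mgst3, Gsta4 and Gstk1). Another 9 were called in none (Gpx3, Gpx8, Mgst1, Gsto2, Gstt1, Prdx1, Cat, Sod2 and Txn2). Gsto1 was the 1 gene called in opposite directions in a pair of knockdowns. No joint count was made over all genes, so whether such counts are particular to this set was not tested. With the replicate block these counts were 7 higher in all 3, 13 lower in all 3 and 6 in none (Cat, Gpx3, Gpx8, Gsto2, Sod2 and Txn2), and Gss, Gstp1 and Gstt2 joined Gsto1 in opposite directions. Other thresholds aside, every alternative called 2 genes higher (Gstt3 and Nqo1) and 4 lower (Gstm2, Gstm3, Gstm6 and Mgst3) in all 3 knockdowns.

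**Figure D2:**
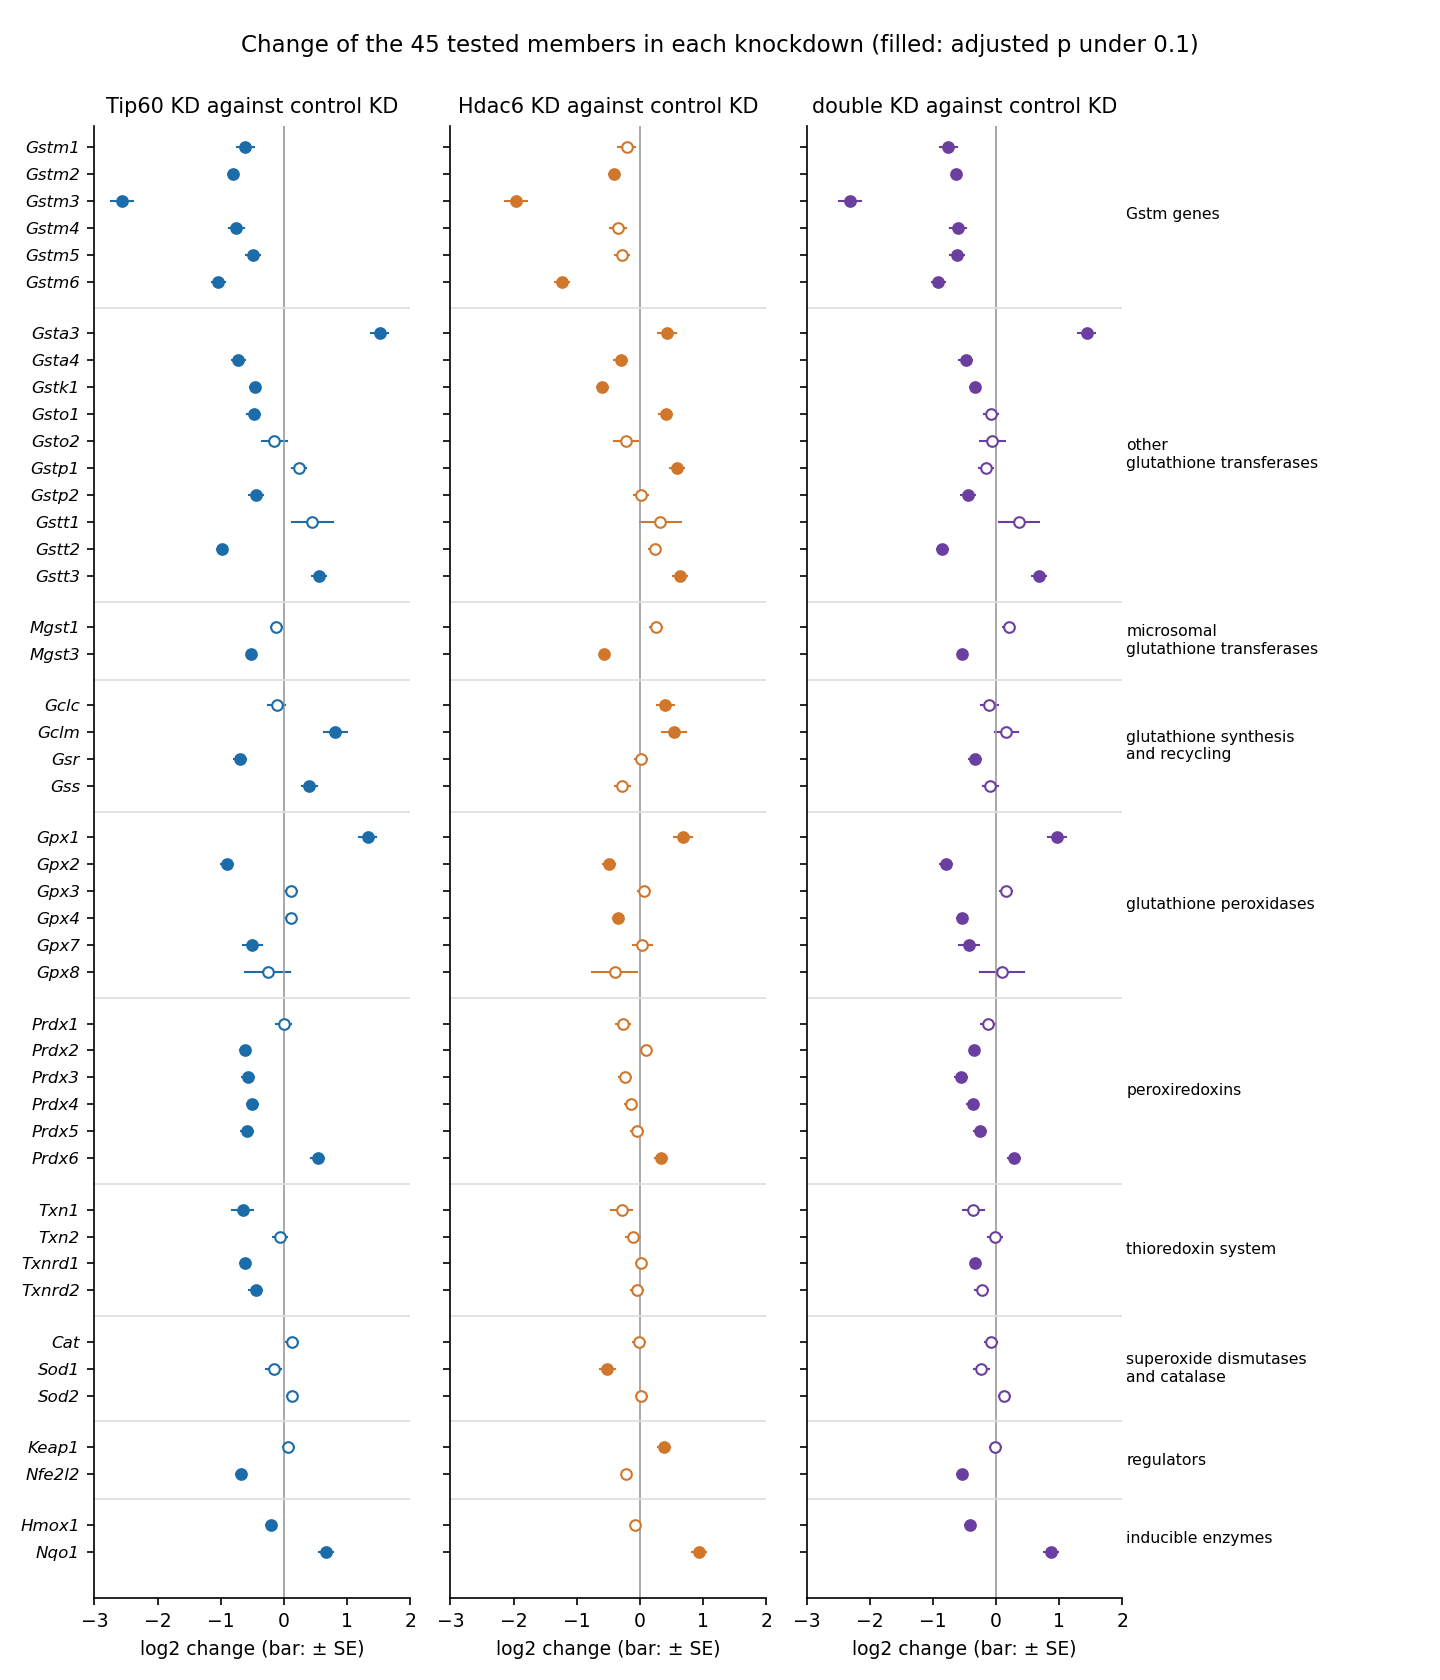
Log2 change against control KD, with its SE, of each tested member, grouped by role, with 1 panel for each knockdown and with filled points for genes called at an adjusted p under 0.1. The largest decrease in every knockdown is that of Gstm3 (-2.56, -1.97 and -2.32), and the largest increase in Tip60 KD is that of Gsta3 (1.51).

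The Gstm genes encode the mu class of cytosolic glutathione transferases and lie side by side on chromosome 3. In GRCm38.p6 they run from Gstm5 at chr3:107895854-107898685 on the plus strand through Gstm7, Gstm6, Gstm3, Gstm2 and Gstm1 to Gstm4 at chr3:108030571-108045179 on the minus strand. All 6 that were tested were called lower in Tip60 KD and in double KD, and 3 of them, Gstm2, Gstm3 and Gstm6, in Hdac6 KD. Over all genes, 20% were called lower in Tip60 KD, 16.9% in double KD and 14.9% in Hdac6 KD. The median change of the 6 was -0.78 in Tip60 KD, -0.69 in double KD and -0.39 in Hdac6 KD.

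Gstm3 had the largest change of the family. Its probe, at chr3:107766615-107766674 in mm9, read 2.09 and 1.93 for control KD (replicates A and B), -0.40 and -0.70 for Tip60 KD, 0.15 and -0.07 for Hdac6 KD, and -0.12 and -0.49 for double KD. The control KD arrays stood apart from the other 6, and Tip60 KD was lowest on both slides. RNA fell to 17.0% of control in Tip60 KD (log2 change -2.56, SE 0.17, adjusted p = 0.00075), to 25.5% in Hdac6 KD (-1.97, SE 0.17, adjusted p = 0.00268) and to 20.1% in double KD (-2.32, SE 0.17, adjusted p = 0.00152). Tip60 KD was lower than Hdac6 KD by a log2 difference of -0.59 (SE 0.17, adjusted p = 0.0753), a call that held in 9 of 19 alternatives.

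Gstm6 (chr3:107741766-107741825, mm9) read -0.04 and -0.13 for control KD, -1.03 and -1.23 for Tip60 KD, -1.24 and -1.42 for Hdac6 KD, and -0.99 and -1.02 for double KD. Here Hdac6 KD was the lowest group on each slide. The gene fell to 48.6% of control in Tip60 KD (-1.04, SE 0.11, adjusted p = 0.0018), 42.4% in Hdac6 KD (-1.24, SE 0.11, adjusted p = 0.00258) and 53.1% in double KD (-0.91, SE 0.11, adjusted p = 0.00397). The difference of 0.20 between Tip60 KD and Hdac6 KD had an adjusted p of 0.302, and 0.0662 with the replicate letter as a block.

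Gstm2 (chr3:107784622-107784681, mm9) gave almost the same reading on both replicates of each group, with 1.98 and 1.99 for control KD, 1.17 and 1.17 for Tip60 KD, 1.53 and 1.60 for Hdac6 KD, and 1.37 and 1.33 for double KD. Its groups did not overlap, and the order from the top was control KD, Hdac6 KD, double KD and Tip60 KD. It fell to 56.8% of control in Tip60 KD (limma adjusted p = 0.00117), 74.7% in Hdac6 KD (limma adjusted p = 0.0123) and 64.6% in double KD (limma adjusted p = 0.00357). Between Tip60 KD and Hdac6 KD the adjusted p was 0.0172, and between double KD and Tip60 KD it was 0.257, or 0.0767 with the replicate block.

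Gstm1 (chr3:107815595-107815654, mm9) read 1.50 and 1.42 for control KD, 0.99 and 0.71 for Tip60 KD, 1.31 and 1.20 for Hdac6 KD, and 0.83 and 0.58 for double KD. The values of Tip60 KD and double KD overlapped, and both groups lay below the other two. RNA fell to 65.5% in Tip60 KD (limma adjusted p = 0.0179) and 59.2% in double KD (limma adjusted p = 0.0122). Hdac6 KD gave 86.6% of control (log2 change -0.21, 95% interval -0.54 to 0.12, adjusted p = 0.346), which became a call with the replicate block (adjusted p = 0.0641).

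Gstm4 (chr3:107846495-107846847, mm9) was dim. It read -1.29 and -1.39 for control KD, -2.14 and -2.05 for Tip60 KD, -1.77 and -1.62 for Hdac6 KD, and -2.09 and -1.78 for double KD. Control KD was highest, and double KD overlapped Tip60 KD. Gstm4 fell to 59.4% of control in Tip60 KD (limma adjusted p = 0.00735) and 66.1% in double KD (limma adjusted p = 0.0212), the latter no longer a call without array A of control KD (limma adjusted p = 0.105). In Hdac6 KD it stood at 78.2% (adjusted p = 0.104, and 0.0382 with the replicate block).

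Gstm5 (chr3:107701101-107701160, mm9), which lies at the end of the cluster and on the other strand, read -0.79 and -0.92 for control KD, -1.21 and -1.49 for Tip60 KD, -1.12 and -1.16 for Hdac6 KD, and -1.45 and -1.50 for double KD. Every knockdown array was below both control KD arrays. It fell to 71.1% of control in Tip60 KD (adjusted p = 0.0215, and 0.107 without array A of control KD) and to 64.9% in double KD (adjusted p = 0.0134). Hdac6 KD gave 81.8% of control (adjusted p = 0.133, and 0.0289 with the replicate block). Gstm7 was at the floor on nearly all arrays: none of its 3 probes passed, and 1 of them rose above the floor on 1 array, B of double KD, at -2.45.

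**Figure D3:**
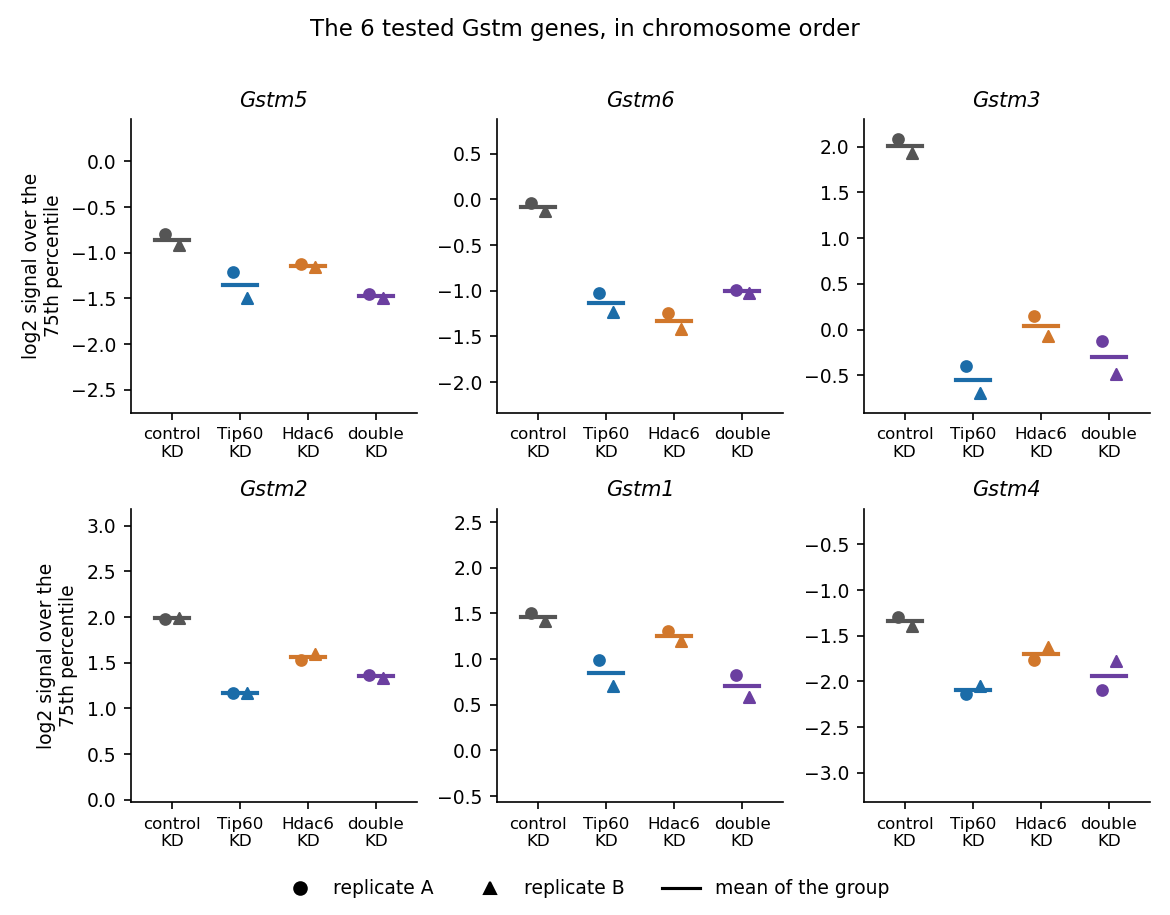
Log2 level of each of the 6 tested Gstm genes on the 8 arrays, with the 4 groups on the horizontal axis, a marker for each replicate and a bar at the mean of each group. Gstm3 drops furthest, from 2.09 and 1.93 in control KD to -0.40 and -0.70 in Tip60 KD, and control KD is the highest group for all 6 genes.

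Several Gstm genes had more than 1 probe, and these did not all give the same size of change. The second probe of Gstm3 changed by -0.76 in Tip60 KD, by -0.59 in Hdac6 KD and by -0.91 in double KD, all called in a fit over all 22594 probes that passed, so the direction held at a smaller size. With the mean of both probes, Gstm3 changed by -1.66, -1.28 and -1.61. The other probes of Gstm2 fell in all 3 knockdowns too. The second probe of Gstm4 changed by -0.07 in Tip60 KD (adjusted p = 0.636), -0.46 in Hdac6 KD and -0.36 in double KD, with only the last 2 called. Gstm6 had a second probe at -0.53, -1.23 and -0.56, of which the change in Hdac6 KD was called (adjusted p = 0.0772), and one more that was near the floor and not called.

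The second probe listed for Gstm1 is placed by the array annotation on chr5:117082490-117082549 (mm9), away from the cluster, and it fell more than the first, by -1.41, -0.63 and -1.19. Its last 27 bases are close to the first 27 of the Gstm3 probe described above, with 2 mismatches. Both stretches are shown because the changes of this probe lay between those of the other Gstm1 probe and those of the Gstm3 probe. Bases that differ are in capitals.

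Gstm1 second probe, bases 34 to 60: tcatCtacaataaagTctgaaacacac

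Gstm3 probe, bases 1 to 27: tcatGtacaataaagCctgaaacacac

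Among the member probes, 5 pairs from different genes shared a stretch of at least 18 bases with at most 2 mismatches, and 4 of these pairs were of Gstm genes. The other stretches were 23 bases between a Gstm6 and a Gstm7 probe, 20 between the second Gstm3 probe and the same Gstm7 probe, 20 between Gstp1 and Gstp2, and 18 between Gstm1 and Gstm2. Whether a probe also bound RNA of a neighbouring family member was not tested, so the sizes of change of single Gstm genes are uncertain.

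**Figure D4:**
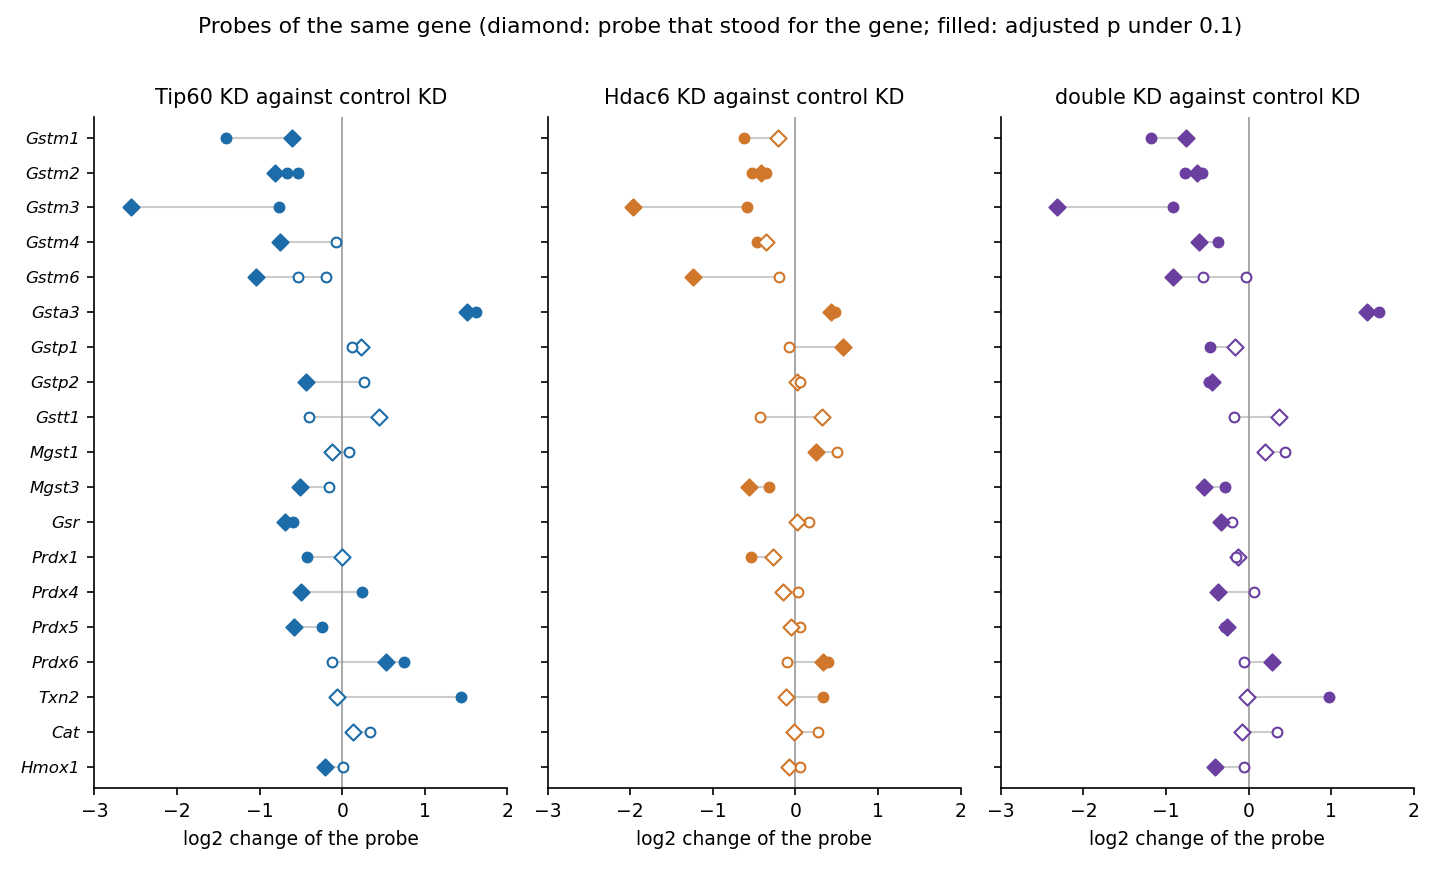
Log2 change against control KD of every probe that passed, for the 19 member genes with several such probes, in each knockdown. Diamonds mark the probe that stood for the gene and filled symbols an adjusted p under 0.1 in the fit over probes. The 2 probes of Gstm3 lie at -2.56 and -0.76 in Tip60 KD, and those of Txn2 at -0.06 and 1.44.

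Across the set, 19 genes had several probes that passed. All probes of a gene had the same sign of change for 12 of these genes with Tip60 depleted, 11 with Hdac6 depleted and 14 with both depleted. Called probes in opposite directions were found for 1 gene, Prdx4 in Tip60 KD, whose second probe was at the floor in control KD.

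The other cytosolic and mitochondrial transferases moved in both directions. Of 10 tested, 2 were called higher and 5 lower in Tip60 KD, 4 higher and 2 lower in Hdac6 KD, and 2 higher and 4 lower in double KD. Gsta3, a transferase of the alpha class, had the largest increase of the whole set. It read 0.30 and 0.27 for control KD, 1.91 and 1.68 for Tip60 KD, 0.74 and 0.68 for Hdac6 KD, and 1.89 and 1.55 for double KD. Tip60 KD and double KD overlapped each other and lay well above the other arrays, and Hdac6 KD lay between.

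Gsta3 rose 2.86-fold in Tip60 KD (log2 change 1.51, SE 0.14, adjusted p = 0.00131), 1.35-fold in Hdac6 KD (0.43, SE 0.14, adjusted p = 0.0805) and 2.70-fold in double KD (1.44, SE 0.14, adjusted p = 0.00248). Tip60 KD exceeded Hdac6 KD by 1.09 (SE 0.14, adjusted p = 0.00742). A second Gsta3 probe changed by 1.62, 0.48 and 1.58, so both probes of this gene gave a like change. At the other end, Gsto2 changed least in Tip60 KD (-0.15, adjusted p = 0.634) and was at the floor on 4 of 8 arrays.

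The next few transferases were chosen after their values were seen, because they lie beside each other in the genome and differed. Gstt3, Gstt1, Gstt4 and Gstt2, of the theta class, lie between chr10:75774117 and chr10:75837419 in GRCm38.p6. Gstt2 read -0.45 and -0.42 for control KD, -1.47 and -1.36 for Tip60 KD, -0.25 and -0.14 for Hdac6 KD, and -1.33 and -1.23 for double KD. The 4 arrays with Tip60 depleted were thus all below the other 4. It changed by -0.98 in Tip60 KD (limma adjusted p = 0.00117), 0.23 in Hdac6 KD (limma adjusted p = 0.11) and -0.85 in double KD (limma adjusted p = 0.00276), and Tip60 KD was below Hdac6 KD by a difference of -1.22 (limma adjusted p = 0.00257). Gstt3, in the same stretch, was higher in all 3 knockdowns, with changes of 0.56, 0.64 and 0.68.

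Gsto1, an omega class transferase, read 1.73 and 1.63 for control KD, 1.26 and 1.13 for Tip60 KD, 2.05 and 2.13 for Hdac6 KD, and 1.70 and 1.50 for double KD. Tip60 KD was below control KD, Hdac6 KD above it, and double KD overlapped it. The changes were -0.48 (adjusted p = 0.0174), 0.41 (adjusted p = 0.043) and -0.08 (adjusted p = 0.646), and Tip60 KD and Hdac6 KD differed by -0.89 (adjusted p = 0.00606). Gstp1 and Gstp2, neighbours of the pi class with 1 pair of probes that resemble each other, changed in Tip60 KD by 0.23 and -0.44, in Hdac6 KD by 0.58 and 0.02, and with both depleted by -0.16 and -0.44, of which the Gstp1 change in Hdac6 KD and the Gstp2 changes in Tip60 KD and double KD were called. The Gstp1 call was lost with the mean of its probes (0.25, adjusted p = 0.111), and the Gstp2 calls held in 14 of 19 alternatives each, with the change in Tip60 KD as small as -0.09.

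Of the microsomal transferases, which sit in membranes, Mgst3 was lower in each knockdown. Its brightest probe read 2.45 and 2.44 for control KD, 1.94 and 1.93 for Tip60 KD, 1.86 and 1.90 for Hdac6 KD, and 1.87 and 1.95 for double KD. All 6 knockdown arrays lay close together, below control KD. The changes were -0.52 (adjusted p = 0.00383), -0.57 (adjusted p = 0.0058) and -0.54 (adjusted p = 0.00538), with an SE of 0.07 each, and each call held in 19 of 19 alternatives. A second probe changed by less, -0.16 (adjusted p = 0.282), -0.32 (adjusted p = 0.0638) and -0.28 (adjusted p = 0.0855). Mgst1 changed by -0.12, 0.25 and 0.20 and was not called.

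Genes that make and recycle glutathione went different ways. Gclm, the modifier subunit of glutamate-cysteine ligase, read 0.42 and 0.11 for control KD, 1.19 and 0.97 for Tip60 KD, 0.96 and 0.65 for Hdac6 KD, and 0.60 and 0.26 for double KD. Array A was above array B in every group, and double KD overlapped control KD while the single knockdowns lay above it. Gclm rose 1.76-fold in Tip60 KD (0.81, SE 0.19, adjusted p = 0.0212) and 1.45-fold in Hdac6 KD (0.54, SE 0.19, adjusted p = 0.098), calls that held in 17 and 7 of 19 alternatives. In double KD the change was 0.16 (adjusted p = 0.603, and 0.0643 with the replicate block), and double KD was below Tip60 KD by a difference of -0.65 (adjusted p = 0.167, and 0.00863 with the block).

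Gclc, the catalytic subunit of the same ligase, changed by -0.11 in Tip60 KD (limma adjusted p = 0.603) and -0.10 in double KD (limma adjusted p = 0.645), and rose in Hdac6 KD (0.40, SE 0.14, limma adjusted p = 0.0913, called in 10 of 19 alternatives). Gss, named after its values were seen, rose by 0.40 in Tip60 KD (adjusted p = 0.0511) and changed by -0.28 in Hdac6 KD (adjusted p = 0.165), a difference of 0.68 (adjusted p = 0.0172). Gsr, the reductase that recycles oxidised glutathione and also named after its values were seen, read 3.64 and 3.45 for control KD, 2.83 and 2.87 for Tip60 KD, 3.61 and 3.52 for Hdac6 KD, and 3.26 and 3.17 for double KD. It fell in Tip60 KD (-0.70, SE 0.10, adjusted p = 0.00383) and by less in double KD (-0.33, adjusted p = 0.0545), and changed by 0.02 in Hdac6 KD (adjusted p = 0.931). The levels of double KD lay between those of Tip60 KD and control KD.

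Glutathione peroxidases were led by Gpx1, the cytosolic enzyme that reduces hydrogen peroxide, which is a selenoprotein. Gpx1 read 3.66 and 3.95 for control KD, 5.09 and 5.17 for Tip60 KD, 4.38 and 4.59 for Hdac6 KD, and 4.67 and 4.87 for double KD. No groups overlapped, with Tip60 KD highest and control KD lowest. It rose 2.50-fold in Tip60 KD (1.32, SE 0.14, adjusted p = 0.00186), 1.60-fold in Hdac6 KD (0.68, SE 0.14, adjusted p = 0.0222) and 1.95-fold in double KD (0.96, SE 0.14, adjusted p = 0.00677). The gene has 1 probe on the array, at chr9:108242276-108242335 (mm9).

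Gpx4, which reduces lipid peroxides in membranes, was the 1 member called between double KD and Tip60 KD, and it is named for that reason, after its values were seen. It read 5.78 and 5.87 for control KD, 5.92 and 5.94 for Tip60 KD, 5.49 and 5.44 for Hdac6 KD, and 5.32 and 5.25 for double KD. The arrays with Hdac6 depleted were below the other 4. It fell in Hdac6 KD (-0.35, SE 0.08, adjusted p = 0.0252) and double KD (-0.54, SE 0.08, adjusted p = 0.0064), and changed by 0.11 in Tip60 KD (adjusted p = 0.345). The call in double KD held in 19 of 19 alternatives, with a change as small as -0.26. That in Hdac6 KD held in 16, being lost with quantile normalization (-0.13, limma adjusted p = 0.274). It was also lost without array B of control KD or of Hdac6 KD.

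Of the other peroxidases, Gpx2, known from the gut epithelium, fell in all 3 knockdowns (-0.91, -0.49 and -0.80, with adjusted p of 0.00183, 0.0185 and 0.004). Gpx7 fell in Tip60 KD and double KD (-0.50 and -0.43), calls that held in 12 and 7 of 19 alternatives. Gpx3, the secreted form, changed least (0.10 in Tip60 KD, adjusted p = 0.47), and Gpx8 was not called in any knockdown.

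In the thioredoxin branch the calls were mostly decreases with Tip60 depleted. Of 6 peroxiredoxins, Prdx2, Prdx3, Prdx4 and Prdx5 fell in both Tip60 KD and double KD, and none was called lower in Hdac6 KD in the fit without a block. Over all genes, 20% were called lower in Tip60 KD, 16.9% in double KD and 14.9% in Hdac6 KD. With the block, Prdx3 (-0.24, limma adjusted p = 0.0219) and Prdx1 (-0.27, limma adjusted p = 0.0798) were called lower in Hdac6 KD, against 25.2% of all genes. Prdx2, a cytosolic form, read 3.08 and 3.07 for control KD, 2.41 and 2.51 for Tip60 KD, 3.15 and 3.17 for Hdac6 KD, and 2.74 and 2.72 for double KD. Double KD lay between Tip60 KD and the other groups, with no overlap. The changes were -0.62 in Tip60 KD (SE 0.07, limma adjusted p = 0.00247), 0.09 in Hdac6 KD (limma adjusted p = 0.485) and -0.34 in double KD (limma adjusted p = 0.0212), and Tip60 KD was below Hdac6 KD by -0.70 (limma adjusted p = 0.00442).

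Prdx3 and Prdx5, found in mitochondria, and Prdx4, of the endoplasmic reticulum, changed by -0.57, -0.59 and -0.50 in Tip60 KD and by -0.56, -0.26 and -0.37 in double KD. The double KD calls of Prdx4 and Prdx5 held in 14 and 9 of 19 alternatives. The Prdx4 call in Tip60 KD was lost with the mean of its probes (limma adjusted p = 0.251). Prdx6, which differs from the others in using glutathione, was called higher in all 3 knockdowns (0.53, 0.33 and 0.28), although 1 of its 3 probes that passed was near 0 in each (-0.12, -0.11 and -0.06) and the calls in Hdac6 KD and double KD held in 13 and 7 of 19 alternatives. Prdx1 changed least of the family in Tip60 KD, reading 7.12 and 6.95 in control KD and 6.92 and 7.14 in Tip60 KD (-0.01, SE 0.11, adjusted p = 0.983). The spread between its replicates was larger than the difference between these groups, and its change there ran from -0.22 to 0.30 over the alternatives.

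Txn1, cytosolic thioredoxin, read 5.23 and 5.13 for control KD, 4.69 and 4.36 for Tip60 KD, 5.02 and 4.76 for Hdac6 KD, and 4.96 and 4.68 for double KD. All knockdown arrays were below control KD, and the call was made in Tip60 KD alone (-0.65, SE 0.17, adjusted p = 0.0297). With the replicate block, Hdac6 KD (-0.29, limma adjusted p = 0.0244) and double KD (-0.36, limma adjusted p = 0.0105) were called as well. Txnrd1, its reductase, is described next after its values were seen. It read 4.97 and 4.96 for control KD, 4.40 and 4.29 for Tip60 KD, 4.99 and 4.98 for Hdac6 KD, and 4.68 and 4.61 for double KD. Hdac6 KD lay just above control KD, and the other groups lay below.

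Txnrd1 changed by -0.62 in Tip60 KD (SE 0.08, limma adjusted p = 0.00276), 0.02 in Hdac6 KD (limma adjusted p = 0.928) and -0.33 in double KD (limma adjusted p = 0.0291), and Tip60 KD was below Hdac6 KD by -0.64 (limma adjusted p = 0.00613). Txnrd2, the mitochondrial reductase, fell in Tip60 KD (-0.45, adjusted p = 0.0194). Txn2 changed least (-0.06 in Tip60 KD, limma adjusted p = 0.725) on its brightest probe, but a dim second probe of the same gene name rose by 1.44 in Tip60 KD (limma adjusted p = 0.00088) and 0.97 in double KD (limma adjusted p = 0.00353). The probes of Txn2 therefore did not give one answer.

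Of the enzymes that act on superoxide and hydrogen peroxide without these carriers, Sod1, the cytosolic superoxide dismutase, read 6.06 and 5.97 for control KD, 5.79 and 5.90 for Tip60 KD, 5.37 and 5.63 for Hdac6 KD, and 5.69 and 5.86 for double KD. It fell in Hdac6 KD (-0.52, SE 0.12, adjusted p = 0.0319) and was not called in Tip60 KD (-0.17, adjusted p = 0.367). The call held in 14 of 19 alternatives, and the change was as small as -0.26 over them. Sod2, the mitochondrial form, and Cat, catalase, changed by 0.13 each in Tip60 KD and were called in no knockdown. For Cat the 95% interval of the change in Tip60 KD ran from -0.10 to 0.36.

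Among the regulators, Nfe2l2 read 2.89 and 2.88 for control KD, 2.25 and 2.15 for Tip60 KD, 2.70 and 2.64 for Hdac6 KD, and 2.38 and 2.30 for double KD. Its groups did not overlap. It fell in Tip60 KD (-0.69, SE 0.08, adjusted p = 0.00223) and double KD (-0.54, SE 0.08, adjusted p = 0.00667), and stood at -0.22 in Hdac6 KD (adjusted p = 0.108, and 0.0236 with the replicate block). Keap1 changed by 0.07 in Tip60 KD (limma adjusted p = 0.645) and -0.01 in double KD (limma adjusted p = 0.941), and rose in Hdac6 KD (0.38, SE 0.09, limma adjusted p = 0.0327). These are RNA levels, while Nrf2 is known to be set largely through the stability of its protein.

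Nqo1 and Hmox1 are the enzymes most often read as responders of Nrf2. Nqo1, a quinone reductase, read 0.86 and 0.79 for control KD, 1.59 and 1.39 for Tip60 KD, 1.82 and 1.71 for Hdac6 KD, and 1.78 and 1.60 for double KD. All knockdown arrays were above control KD. It rose 1.58-fold in Tip60 KD (adjusted p = 0.00703), 1.92-fold in Hdac6 KD (adjusted p = 0.00482) and 1.82-fold in double KD (adjusted p = 0.0048). Hmox1, haem oxygenase, fell instead, by 0.20 in Tip60 KD (limma adjusted p = 0.091) and 0.41 in double KD (limma adjusted p = 0.0135), with a change of -0.07 in Hdac6 KD (limma adjusted p = 0.586). The call in Tip60 KD held in 7 of 19 alternatives and that in double KD was lost with the mean of the probes (-0.23, limma adjusted p = 0.241), a second Hmox1 probe having changed by 0.01, 0.05 and -0.05. In Tip60 KD, Nfe2l2 and its known targets did not move in one direction, with Nqo1 and Gclm higher and Nfe2l2, Txnrd1 and Gsr lower. The picture differed by knockdown. Without a block, Nqo1 and Gclm were called higher in Hdac6 KD, and Nfe2l2 (-0.22), Txnrd1 (0.02) and Gsr (0.02) were not called. With both depleted, Nqo1 was called higher, Nfe2l2, Txnrd1 and Gsr were called lower, and Gclm was not called.

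Nrf2 binds the antioxidant response element, whose core is written TGACNNNGC, or GCNNNGTCA when read on the opposite strand. The core was searched on both strands in the 250 bases before the start of each gene, in RefSeq promoter windows of GRCm38.p6, and its first bases are shared with the motifs of other bZIP factors. Of 45 member genes with an entry, 9 held it (20%), against 11.5% of 27025 genes and 10.2% of 32851 windows overall. There was no entry for Gclc, Gsr, Gsta4, Gstt2, Hmox1 and Prdx6. The matches are shown with the core in capitals, each written on the strand of its gene.

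Gclm, chr3:122245407-122245447, plus strand: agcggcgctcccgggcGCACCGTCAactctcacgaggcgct

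Gsta3, chr1:21240448-21240488, plus strand: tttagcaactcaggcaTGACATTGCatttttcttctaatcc

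Gstm5, chr3:107895796-107895836, plus strand: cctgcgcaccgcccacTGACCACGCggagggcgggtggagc

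Gstm7, chr3:107931719-107931759, minus strand: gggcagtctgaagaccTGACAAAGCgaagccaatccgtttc

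Nfe2l2, chr2:75704879-75704913, minus strand: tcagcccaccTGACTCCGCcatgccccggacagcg

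Mgst1, chr6:138140455-138140495, plus strand: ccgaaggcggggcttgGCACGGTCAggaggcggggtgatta

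Prdx1, chr4:116685450-116685490, plus strand: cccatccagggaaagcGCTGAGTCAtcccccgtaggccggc

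Sod1, chr16:90220690-90220730, plus strand: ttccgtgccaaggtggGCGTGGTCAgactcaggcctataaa

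Txnrd1, chr10:82859098-82859138, plus strand: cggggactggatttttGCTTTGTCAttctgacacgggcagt

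The core began 42 to 240 bases before the start site. Of the 8 genes with a core that were tested, 2 were called higher and 3 lower in Tip60 KD, 2 higher and 1 lower in Hdac6 KD, and 1 higher and 3 lower in double KD. Over all genes, 39.7%, 28.9% and 32.8% were called in these comparisons, and nothing is read from counts among 8 genes. Gclm and Gsta3 rose in Tip60 KD while Gstm5, Nfe2l2 and Txnrd1 fell, so genes with a match went both ways. A match is a run of letters and was not measured as a binding site, and binding at these promoters is not part of these data.

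Set against each other, the single knockdowns differed mostly in one direction. Between Tip60 KD and Hdac6 KD, 25 of 45 genes were called, 4 higher and 21 lower in Tip60 KD, where 23.5% of all genes were called and 11.3% were lower. With normexp background correction the split was 5 higher and 14 lower, where 18.3% of all genes were called and 9.15% were lower. The median difference was -0.32, against 0.02 over all genes. Of the 22 bright members 11 were lower, where 13.2% of those 4529 genes were. The genes higher in Tip60 KD were Gsta3, Gpx1, Gss and Gpx4, and the 5 largest decreases were those of Gstt2, Gsto1, Gsr, Prdx2 and Txnrd1, both groups being named after their values were seen. The count was 14 and 12 without arrays A and B of Tip60 KD, and 11 and 13 without those of Hdac6 KD, and it was 33 with the replicate block (8 higher and 25 lower), where 41.5% of all genes were called. Adding the Hdac6 hairpin to the Tip60 hairpin gave 1 call among the members, Gpx4 (log2 difference -0.65, adjusted p = 0.0476), where 3.71% of all genes were called. With the replicate block that count was 18, 11 higher and 7 lower, against 26.2% of all genes. The Gpx4 call held in 9 of 19 alternatives. With all arrays and no block, 14 members had an unadjusted p under 0.05 in limma. That count was not made over all genes, so nothing is read from it.

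**Figure D5:**
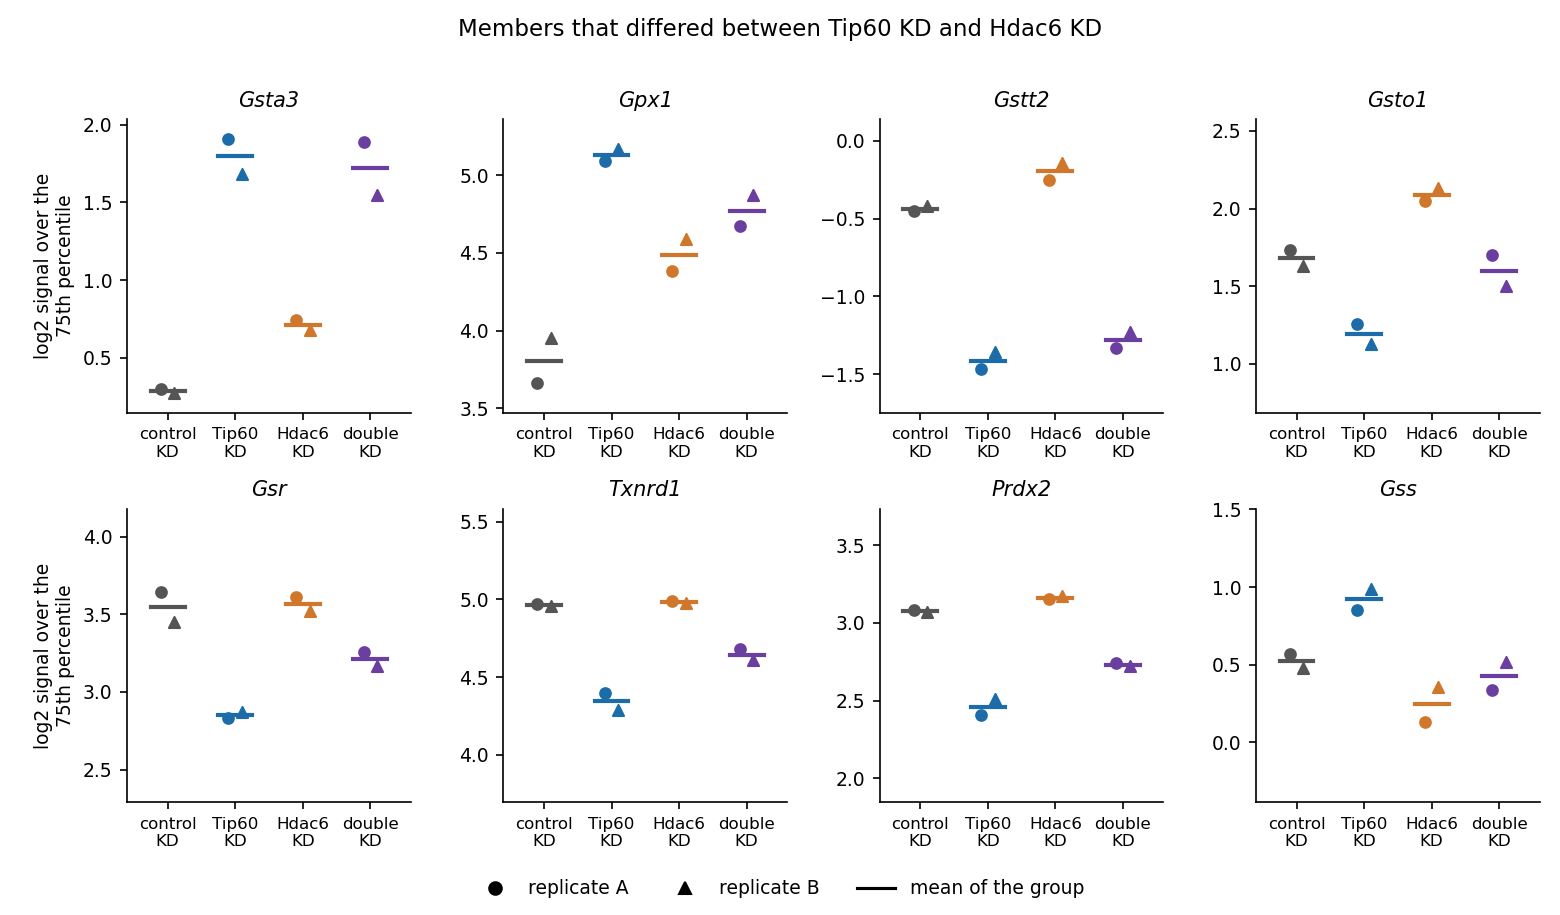
Log2 level on the 8 arrays of member genes that differed between Tip60 KD and Hdac6 KD, with a marker for each replicate and a bar at the mean of each group. In the Gstt2 panel, the 4 arrays with Tip60 depleted lie between -1.47 and -1.23 and the other 4 between -0.45 and -0.14.

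Where double KD changes a gene by as much as both single knockdowns added together, the interaction is 0. It was called different from 0 for 15 members, 8 above and 7 below, where 22% of all genes were called, and for 28 with the replicate block, where 47.1% of all genes were. For each of the 15 the change in double KD was smaller in size than the sum. The control KD arrays enter the interaction, so an error in them enters it too, and its part was not tested. Gstm3 had the largest value, 2.21 (SE 0.25, adjusted p = 0.00917), since it fell by 2.56 and 1.97 in the single knockdowns and by 2.32, not by their sum, in double KD. Gstm6 followed with 1.37 (SE 0.15, adjusted p = 0.00917). On the other side, Gclm stood at -1.19 (adjusted p = 0.0376), Gpx1 at -1.04 (adjusted p = 0.0252) and Nqo1 at -0.74 (adjusted p = 0.0327), all genes that rose in the single knockdowns. Hdac6 RNA stood at 27.3% of control in double KD and at 17.8% in Hdac6 KD, and the part of this difference in the interaction was not tested.

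A list of 45 related genes of thiol and redox metabolism that are not in the set was read beside it, of which 42 were tested. In each knockdown 21 of these (50%) were called, where 39.7%, 28.9% and 32.8% of all genes were, namely 8 higher and 13 lower with Tip60 depleted, 7 and 14 with Hdac6 depleted, and 6 and 15 with both. Blvrb, a biliverdin reductase, fell in all 3 (-1.22, -0.96 and -1.18). So did Chac1, which degrades glutathione (-1.43, -1.28 and -0.78), Txnip, which binds thioredoxin (-2.87, -2.50 and -2.17), and the bZIP factors Bach1 (-1.12, -0.50 and -0.70) and Maff (-1.58, -1.11 and -1.27), which share binding motifs with Nrf2.

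Srxn1, the sulfiredoxin that repairs overoxidised peroxiredoxins, read 0.84 and 0.74 for control KD, 0.88 and 0.72 for Tip60 KD, 2.05 and 1.93 for Hdac6 KD, and 1.13 and 0.90 for double KD. The Hdac6 KD arrays lay above the other 6, with a change of 1.20 (SE 0.12, limma adjusted p = 0.00319), against 0.01 in Tip60 KD (limma adjusted p = 0.97) and 0.23 in double KD (limma adjusted p = 0.221). Sesn3, a sestrin, fell most in Hdac6 KD (-1.49, adjusted p = 0.00221), with -0.65 in double KD (adjusted p = 0.0141) and -0.26 in Tip60 KD (adjusted p = 0.161).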

How the data were processed

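RNA was measured on 8 one-colour Agilent mouse arrays, 2 biological replicates in each of 4 groups, so the number of arrays limits the precision. According to the methods, Trizol-extracted RNA was amplified to Cy3-labelled cRNA. The scanner values the authors deposited are fluorescence intensity from Feature Extraction 10.7.1.1, with background subtracted and a spatial trend removed, and arrays not scaled to each other. A series matrix that the authors deposited has log2 values whose normalisation is not given in the sources used here; it served as an alternative. Its columns have nearly equal distributions.

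Processed signal was expressed relative to the 75th percentile of its array, given a minimum of 0.153 (the highest, over arrays, of the lowest signal well above background) and converted to log2, and 8.86% of values lay at the floor. Probes were kept where at least 2 arrays had them well above background and over the floor, and each gene was represented by its brightest probe. RefSeq accessions gave current symbols for 27234 probes, of which 71 were member probes. The lmFit and eBayes functions of limma 3.58.1, run in R 4.3.3, fitted all 4 groups together, without a block, with 2-sided tests and Benjamini-Hochberg adjustment over 18116 genes, called under 0.1 as in the study's methods. Residual degrees of freedom were 4, and the prior added 1.84. Adjusted p-values of further probes come from the same fit over 22594 probes. The fit alone was tested on simulated arrays with independent noise, without the scaling, filter, choice of probes or pairing of arrays. Figures were drawn with matplotlib 3.10.9.

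The replicate letter coincides with the slide. In all 6 pairs of groups the A minus B differences of one correlated with those of the other (0.651 to 0.799 across genes), so the letters pair the arrays, and a fit with the replicate block was run. Each group had the same position on both slides, so position and group cannot be told apart.

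The members, the lists of roles and of related genes, and the tests were chosen with earlier results of these data known. Named genes are all Gstm genes, members called with a change of at least 2-fold in a knockdown, the members with the largest and smallest change in Tip60 KD in each role, Kat5, Hdac6, and, of the related genes, Txnip and those called with a change of at least 2-fold; others are named as chosen later. Alternatives were the series matrix, other background correction and scaling, other filters, other ways to represent a gene, other thresholds and each array left out. The counts of alternatives given for single genes leave out the other thresholds.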

Additional observations from a re-analysis of the deposited data

Results flagged for a closer look

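The effect of Tip60 KD and Hdac6 KD together differed from the sum of their single effects for 15 members (limma, interaction term, adjusted p under 0.1), where 22% of all genes were called. An error in the control KD arrays would enter this term for every gene. The interaction was above 0, with double KD less far below control KD than the sum, for Gstm3 (2.21, adjusted p = 0.00917), Gstm6 (1.37, adjusted p = 0.00917), Gstk1 (0.72, adjusted p = 0.0168), Gstm2 (0.61, adjusted p = 0.0182), Gpx2 (0.60, adjusted p = 0.0376), Gsta4 (0.55, adjusted p = 0.0605), Mgst3 (0.55, adjusted p = 0.0234) and Nfe2l2 (0.36, adjusted p = 0.0869). It was below 0 for Gclm (-1.19, adjusted p = 0.0376), Gpx1 (-1.04, adjusted p = 0.0252), Gstp1 (-0.97, adjusted p = 0.0181), Nqo1 (-0.74, adjusted p = 0.0327), Prdx6 (-0.59, adjusted p = 0.0459), Gstt3 (-0.52, adjusted p = 0.083) and Keap1 (-0.46, adjusted p = 0.0653). Other thresholds aside, 6 of the 15 were called under every alternative: Gstk1, Gstm2, Gstm3, Gstm6, Gstp1 and Mgst3.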

How the results depend on the processing

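Other thresholds aside, every called member kept its direction under every alternative. Apart from the mean of the probes, these alternatives did not set a gene's dimmer probes against its brightest one. In Tip60 KD, for instance, further probes of Prdx4, Prdx6 and Hmox1 had the opposite sign to the call. At an adjusted p under 0.1, 23 of 31 calls in Tip60 KD and 15 of 27 in double KD held in all. So did 7 of 19 in Hdac6 KD and 10 of 25 between Tip60 KD and Hdac6 KD. With the replicate block no call was lost, and the counts were 30 in Hdac6 KD, 18 for double KD set against Tip60 KD, and 28 for the interaction, where it gained 11, 17 and 13 genes. Requiring a 2-fold change left 4 genes in Tip60 KD, 2 in Hdac6 KD, 2 in double KD, 2 between Tip60 KD and Hdac6 KD and 0 between double KD and Tip60 KD. Over all 18116 genes it left 902, 443, 530, 337 and 13 in the same order. With the arrays of the compared groups alone, Tip60 KD against Hdac6 KD gave 15 and double KD against Tip60 KD gave 0. The last comparison also gave 0 with normexp background correction, 6 with quantile scaling, 4 without a filter, 5 with a filter on every array and 3 with the mean of probes. Leaving out 1 array in turn gave 26 to 30 genes in Tip60 KD, 10 to 19 in Hdac6 KD (10 without array B of control KD or of Hdac6 KD, 12 without array A of either), 18 to 25 in double KD, 11 to 25 between the single knockdowns (11 and 13 without arrays A and B of Hdac6 KD, 14 and 12 without those of Tip60 KD) and 0 throughout between double KD and Tip60 KD in limma, where 8 to 12 members had an unadjusted p under 0.05; the array left alone in a group is assumed to vary like the others. Counts with 1 array left out, and counts of unadjusted p, were not made over all genes. In double KD, 18.5% of the calls were higher, and 30.4% with the series matrix, against 48.6% and 52.3% of the calls over all genes. Between Tip60 KD and Hdac6 KD this share was 16%, and 26.3% with normexp, against 51.8% and 50.1% over all genes. The cause of these changes was not tested. Gstm4 in double KD was lost with normexp (adjusted p = 0.108). Dim probes limit what Gpx8 and Gsto2 can show, with 1 and 4 of 8 values at the floor.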
